A study of Mus musculus with 6 samples.

Results

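The 8 genes described here encode the HNF4 paralogs and the transcription factors that define the gut epithelium, Hnf4a, Hnf4g, Cdx1, Cdx2, Gata4, Gata5, Gata6 and Creb3l3, chosen by name out of 18193 genes on the array. They were measured by 18 of 45037 probe sets, those whose only annotated symbol was a member. Each gene was represented by its probe set with the highest mean over the 6 arrays, and the other probe sets served as a check. The arrays (Affymetrix whole-genome mouse arrays) carried total RNA of the proximal colon, 3 from Hnf4α mutant mice and 3 from littermate controls, all 1 year of age, kept pathogen free and given ketamine and xylazine before sacrifice. The mutants carried floxed Hnf4α alleles and Cre under the villin promoter, which is active in the intestinal epithelium, so that other cells of the colon kept the intact gene. The controls are labelled wildtype, and neither the labels nor the methods say whether they carried floxed alleles. Values are log2 signals after RMA, a joint normalization of the arrays in which a difference of 1 is a doubling of the signal, and they were compared with limma at an adjusted p under 0.05 over all probe sets.

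Intestinal epithelium is laid down and kept in its identity by a small set of transcription factors. The caudal homeobox factors CDX1 and CDX2 specify intestine against stomach, the zinc finger factors GATA4, GATA5 and GATA6 pattern the gut along its length, and the nuclear receptors HNF4α and HNF4γ switch on genes of mature enterocytes. HNF4α and HNF4γ bind the same DNA element, and in the mouse small intestine they can stand in for each other. CREB3L3, also called CREBH, is a membrane-bound factor of liver and intestine that is released by cleavage and acts on lipid genes.

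The arrays differed in more than genotype. By their labels, mutant replicates 2 and 3 are male and the remaining mice female, yet the log2 signals of 3 Y-linked genes lay between 5.35 and 8.12 in all mutants, against 2.75 to 4.01 in controls. Sex by RNA and genotype therefore cannot be told apart in any value below. Markers of smooth muscle, each array taken against the mean of the controls, had a median of -0.30, -3.95 and -0.42 over 12 genes in mutant replicates 1, 2 and 3, and 12 fibroblast and matrix markers had -0.19, -3.12 and -0.47 there. The median of 14 gut epithelium markers was 0.09, 0.19 and 0.14 in mutant replicates 1, 2 and 3 and between -0.02 and 0.06 in the controls. Over the 14 markers the log2 fold changes had a median of 0.16 and none was called, with Epcam at -0.09, Krt8 at 0.17 and Cdh1 at 0.24, and with the highest values at Krt18 (0.75, adjusted p = 0.112 from limma), Rab25 (0.70, adjusted p = 0.0789) and Krt19 (0.45, adjusted p = 0.153). All 12 muscle and all 12 matrix markers had negative log2 fold changes, and none of these markers passed the test. Medians of -0.63, -1.31 and -0.16 were found for 11 leukocyte markers in the mutants in the same order, and of -0.22, -1.49 and -0.57 for 7 endothelial markers. The medians in the mutants lay between -0.26 and 0.11 for 6 enteric neuron and glia markers, between -0.04 and 0.12 for 9 squamous markers, between 0.09 and 0.17 for 6 gastric markers and between -0.48 and -0.07 for 7 markers of small intestine enterocytes, and no gene of these lists was called. The part of sex, of mutant replicate 2 and of cell composition in the results was not tested beyond the values given with them.

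Hnf4a was the gene of the group that changed, and it was measured from a gene with a pair of promoters. The probe sets were not assigned to transcripts of either promoter, and their place relative to the deleted part of the gene was not analysed here. The bases before each annotated start are shown because either promoter can give rise to the signal reported next (RefSeq, GRCm38.p6, plus strand, 5′ to 3′). Capitals mark AGATAA, the core bound by GATA factors.
Hnf4a upstream (P2) promoter, chr2:163506607-163506810: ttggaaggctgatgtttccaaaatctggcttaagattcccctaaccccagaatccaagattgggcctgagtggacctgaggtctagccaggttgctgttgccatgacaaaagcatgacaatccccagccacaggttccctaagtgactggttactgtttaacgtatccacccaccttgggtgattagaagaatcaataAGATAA
Hnf4a downstream (P1) promoter, chr2:163546905-163547154: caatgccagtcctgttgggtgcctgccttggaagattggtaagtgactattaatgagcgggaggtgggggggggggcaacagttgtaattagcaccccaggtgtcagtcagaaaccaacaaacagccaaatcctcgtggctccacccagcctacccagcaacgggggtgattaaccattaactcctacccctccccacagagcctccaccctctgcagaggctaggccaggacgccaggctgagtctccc
In the 250 bases before a start (204 for P2, cut where the annotated gene begins), searched on both strands, AGATAA occurred in 9.99% of 32851 windows of the RefSeq table, the HNF4 element CAAAGTCC in 1.20% and the CDX element TTTATNG in 9.81%. Windows of Hnf4a, Cdx2, Gata5 and Creb3l3 were found in the table and could be shown, 6 in all. None of the 6 held the HNF4 or the CDX element, and AGATAA occurred before the P2 start of Hnf4a and before an internal start of Creb3l3. These matches describe letters in the windows and say nothing of binding.

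Hnf4a, the factor deleted in the mutants, fell in every mutant colon. Its log2 signal was 10.17, 10.09 and 10.15 in mutant replicates 1, 2 and 3, against 12.23, 12.01 and 11.97 in control replicates 1, 2 and 3. The mutants lay within 0.08 of each other and far below the lowest control, so that the groups did not overlap. The log2 fold change was -1.94 (standard error 0.10, 95% interval -2.18 to -1.69, adjusted p = 0.000788 from limma), a ratio of 0.261. In whole tissue, fewer cells of a type and less RNA per cell cannot be told apart, and neither was tested for Hnf4a. The median log2 fold change of the 14 epithelial markers was 0.16. The groups did not overlap for 6 higher and 1 lower of them, where 14.5% of all genes were higher and 8.86% lower without overlap. Scaling each array to those markers moved the median of all genes by -0.21. Hnf4a then had a log2 fold change of -2.14 (adjusted p = 0.000334 from limma). The signal averaged 10.14 ± 0.04 in mutants and 12.07 ± 0.14 in controls (SD, n = 3 each).

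The other 3 probe sets of Hnf4a fell as well, by different amounts. The next brightest gave 8.63, 8.89 and 8.66 in mutants, against 11.02, 10.93 and 11.01 in controls, a log2 fold change of -2.26 (95% interval -2.51 to -2.01, limma adjusted p = 0.000411). The third gave 8.64, 8.54 and 8.77 in mutants, against 10.86, 10.73 and 10.70 in controls, a log2 fold change of -2.11 (limma adjusted p = 0.000504). The dimmest gave 7.77, 8.09 and 7.73 in mutants, against 9.35, 9.23 and 9.46 in controls, a log2 fold change of -1.48 (95% interval -1.79 to -1.17, limma adjusted p = 0.00977). The interval of the dimmest probe set did not meet that of the steepest, so the size of the fall differed between probe sets. Over the 4 probe sets the ratio of mutants to controls lay between 0.209 and 0.358.

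Hnf4g, the paralog, was not shown to change. Its log2 signal was 6.38, 7.34 and 6.35 in mutant replicates 1, 2 and 3, against 6.52, 6.002 and 6.92 in controls. The groups overlapped, and the highest value came from mutant replicate 2, whose muscle and matrix markers were low. The log2 fold change was 0.21 (standard error 0.33, 95% interval -0.57 to 1.00, adjusted p = 0.807 from limma), an interval of ratios from 0.673 to 1.99. Without mutant replicate 2 the log2 fold change was -0.11, and without control replicate 2 it was -0.03. The dimmer probe sets, at 6.004 to 6.64 and 5.98 to 7.13 in mutants and at 6.01 to 6.54 and 5.81 to 6.32 in controls, gave 0.10 (adjusted p = 0.859) and 0.36 (adjusted p = 0.644).

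The change of Hnf4a was set directly against that of Hnf4g within each array. The log2 signal of Hnf4a minus that of Hnf4g, relative to its mean in controls, was -1.81, -2.85 and -1.79 in mutants, against 0.12, 0.41 and -0.53 in controls. The groups did not overlap, and they differed by -2.15 (exact two-sided permutation p = 0.1, the smallest that 3 arrays against 3 can give). The mutant values had an SD of 0.61 and the control values an SD of 0.48, most of which came from Hnf4g.

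**Figure D1:**
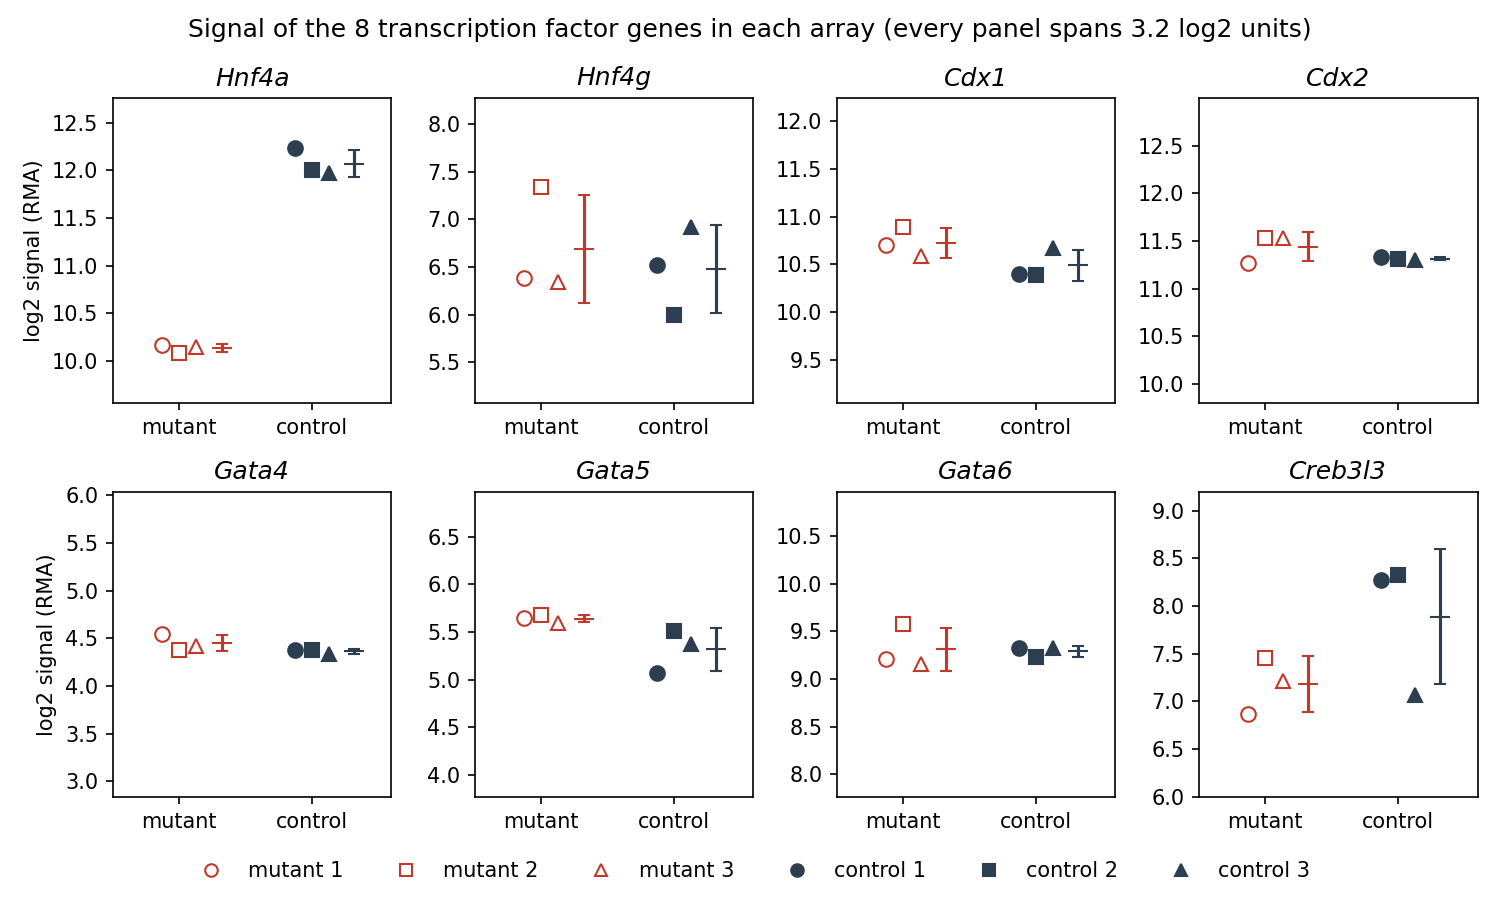
Log2 signal (vertical axis, each panel 3.2 units tall) of the 8 genes in 3 mutant arrays (open symbols, left) and 3 control arrays (filled symbols, right), with the mean and SD of each group beside the points. Hnf4a lay between 10.09 and 10.17 in mutants and between 11.97 and 12.23 in controls, while the groups overlapped for the other genes except Gata5.

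The CDX factors kept a high signal in the mutants. Cdx2, without which the embryonic intestine takes on foregut features in the mouse, had a log2 signal of 11.27, 11.53 and 11.53 in mutants, against 11.33, 11.31 and 11.30 in controls. Mutant replicate 1 lay below all controls and the other mutants above them, so that the groups overlapped. Mutants differed from controls by 0.13 (log2 fold change, 95% interval -0.12 to 0.38, adjusted p = 0.626 from limma), which puts the ratio between 0.918 and 1.30. Its dimmer probe set, at 10.45, 10.87 and 10.46 in mutants and at 10.35, 10.45 and 10.59 in controls, gave 0.13 (adjusted p = 0.720).

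Cdx1, a caudal homeobox factor of crypt and villus, had a log2 signal of 10.70, 10.89 and 10.58 in mutants, against 10.40, 10.39 and 10.67 in controls. Control replicate 3 lay above mutant replicate 3, and the other controls lay below all mutants. Between the groups the log2 fold change came to 0.24 (standard error 0.13, 95% interval -0.07 to 0.54, adjusted p = 0.470 from limma). For the brightest probe set of either CDX gene, the interval left out a fall to a ratio below 0.918. The interval of the dimmer Cdx2 probe set reached down to a ratio of 0.865. With each array scaled to the epithelial markers, the log2 fold change of Cdx2 was -0.08 (standard error 0.11). The bound of 0.918 comes from the fit without that scaling.

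None of the GATA factors passed the test. Gata6, the GATA factor found along the whole intestine including the colon, had a log2 signal of 9.21, 9.57 and 9.16 in mutants, against 9.33, 9.23 and 9.33 in controls. The groups overlapped, with mutant replicate 2 the highest. A log2 fold change of 0.02 was found (95% interval -0.29 to 0.33, adjusted p = 0.963 from limma), and it was -0.11 without mutant replicate 2 and -0.02 without control replicate 2. The dimmer probe sets, at 7.88 to 8.40 and 4.84 to 5.002 in mutants and at 8.02 to 8.28 and 4.94 to 5.05 in controls, gave -0.0009 and -0.10, with adjusted p of 0.999 and 0.681.

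Gata5, which is known from the endoderm and its epithelium, had a log2 signal of 5.64, 5.67 and 5.60 in mutants, against 5.07, 5.51 and 5.37 in controls. The mutants lay close together and above all controls. The log2 fold change was 0.32 (95% interval 0.01 to 0.63), and it did not pass the test (adjusted p = 0.372 from limma), while its unadjusted p was 0.0442 by limma and 0.0547 by SAM, the kind of test the study used. Its other probe set, at 3.77 to 4.04 in mutants and 3.65 to 3.92 in controls, gave 0.07 (adjusted p = 0.812). Whether the low values of that probe set are cut off at the bottom of the scale was not tested.

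Gata4, a factor of the proximal small intestine that is largely missing from the colon, gave 4.54, 4.38 and 4.42 in mutants, against 4.38, 4.38 and 4.33 in controls. The groups overlapped, as they did for the dimmer probe set, at 3.52 to 3.89 in mutants and 3.39 to 3.86 in controls. Mutants differed from controls by 0.08 (log2 fold change, 95% interval -0.13 to 0.30, adjusted p = 0.711 from limma). The mean signal of each Gata4 probe set lay below 5, and whether these values are cut off at the bottom of the scale was not tested.

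Creb3l3 had the widest difference after Hnf4a, and its controls did not agree among themselves. Its log2 signal was 6.87, 7.46 and 7.22 in mutants, against 8.27, 8.33 and 7.07 in controls. Control replicates 1 and 2 lay above all mutants, and control replicate 3 lay among them. Mutants differed from controls by -0.71 (log2 fold change, standard error 0.35, 95% interval -1.53 to 0.12, adjusted p = 0.440 from limma). It was -1.12 without control replicate 3 (adjusted p = 0.137) and stayed uncalled.

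Of the 8 genes, 1 fell and none rose at an adjusted p under 0.05, where 0.879% of the 18193 genes were called, 72 lower (0.396%) and 88 higher (0.484%). By probe set, the 4 of Hnf4a were the called ones among 18, where 0.531% of all probe sets were called, 0.226% lower and 0.304% higher. After scaling to the epithelial markers, which moved the median of all genes by -0.21, 108 probe sets were called higher and 325 lower in place of 137 and 102, and Cdx2, Gata4 and Gata6 had log2 fold changes of -0.08, -0.12 and -0.19. The groups did not overlap for 2 of the 8, Hnf4a and Gata5, where 23.3% of all genes had groups that did not overlap, 8.86% lower and 14.5% higher. Without adjustment, at a p of 0.05 or less, limma gave the same pair of the 8 against 16.2% of all genes, and SAM gave Hnf4a alone against 15.5%. The highest value lay in mutant replicate 2 for 5 of the 8 genes, Hnf4g, Cdx1, Cdx2, Gata5 and Gata6, as it did for 30.4% of all genes. Of the 8 log2 fold changes 6 were positive, and over all genes 60.4% were, with a median of 0.05.

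**Figure D2:**
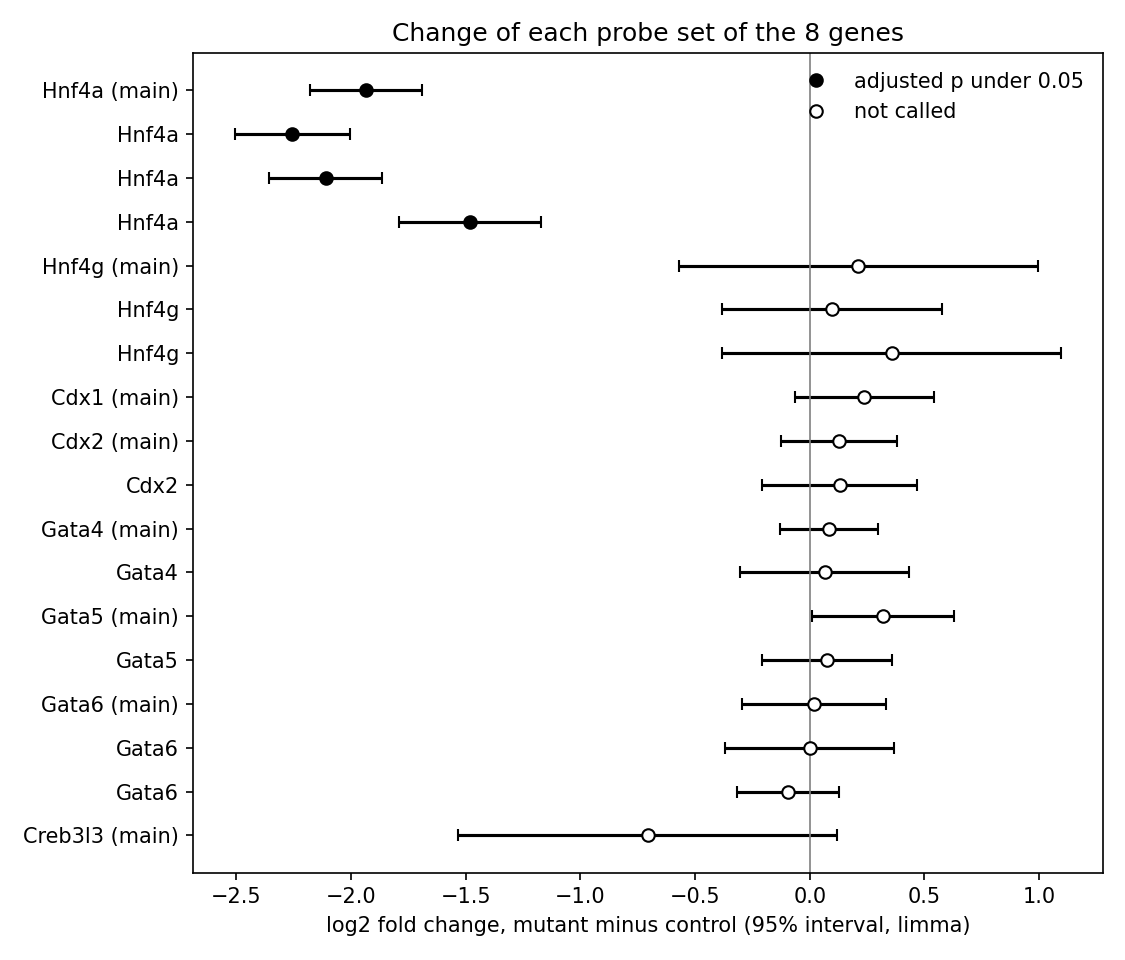
Log2 fold change, mutant minus control (horizontal axis), with the 95% interval from limma, for each of the 18 probe sets, grouped by gene with the brightest first (main). The 4 probe sets of Hnf4a lie between -2.26 and -1.48, and the interval of every other probe set reaches across or close to 0.

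The genes closest to Hnf4a over the 6 arrays were sought by the root mean square distance of the log2 signal, each gene set against its own mean in controls. Since the arrays form a low and a high group, closeness here mainly means a fall of like size. Dennd5b, which encodes a DENN domain protein, was the closest, at a distance of 0.12, with 4.26, 4.25 and 4.17 in mutants, against 6.18, 5.86 and 6.06 in controls. Cubn, the cubilin receptor of the apical membrane, followed at 0.24, with 4.002, 4.34 and 3.72 in mutants, against 6.38, 5.86 and 6.03 in controls. No background level is known for these probe sets, so the distances describe the deposited signals, and whether the low mutant values of Dennd5b and Cubn are cut off at the bottom of the scale was not tested.

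Tmigd1, an adhesion protein of epithelia, lay at 0.24 with 9.40, 9.98 and 9.84 in mutants, against 11.94, 11.46 and 11.29 in controls. Xdh, xanthine dehydrogenase of purine breakdown, and Hkdc1, a hexokinase domain protein, lay at 0.29 and 0.30. The log2 fold changes of these 5 genes were between -2.07 and -1.80, and each fell at an adjusted p from limma between 0.00170 and 0.0407. Since the genes were picked by closeness to Hnf4a on these same arrays, their falls and p-values follow from that choice. Xdh spread most among the mutants, with 7.70, 6.70 and 7.54 in mutant replicates 1, 2 and 3 and 9.32, 9.14 and 9.06 in controls. Hkdc1 gave 6.95, 7.72 and 7.36 in mutants, against 9.06, 9.11 and 9.26 in controls.

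**Figure D3:**
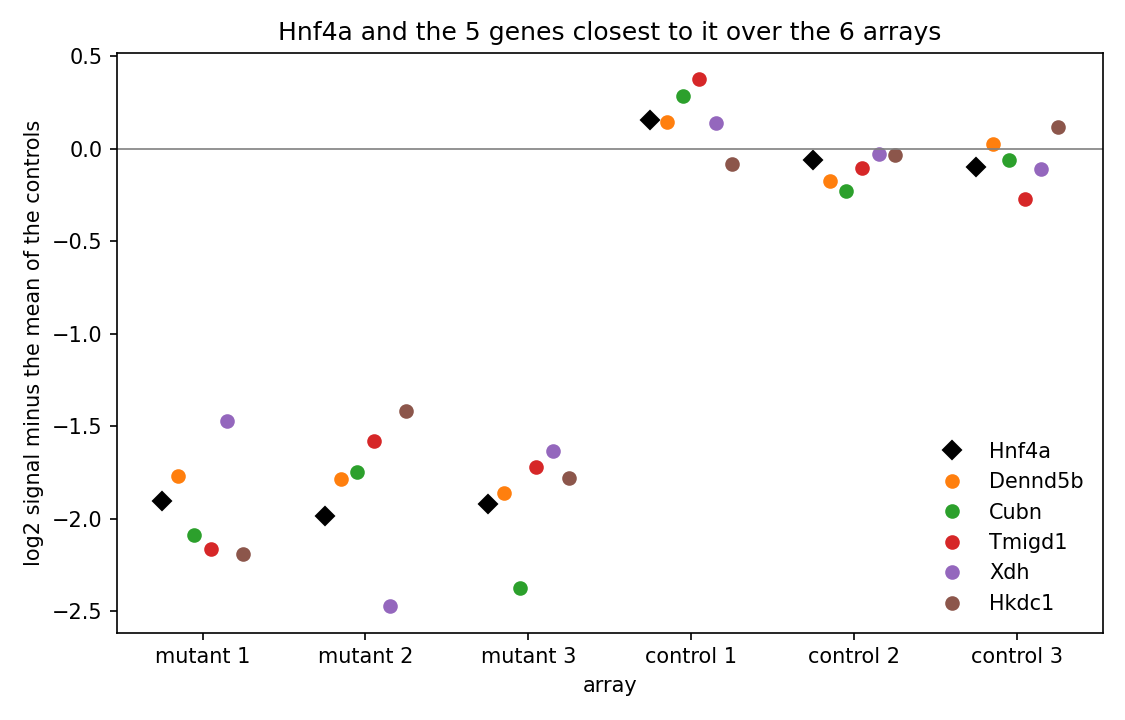
Log2 signal relative to the control mean (vertical axis) in each array (horizontal axis) for Hnf4a (diamonds) and the 5 genes closest to it (circles). Dennd5b runs nearest to Hnf4a, at a distance of 0.12, and in mutant replicate 2 Hkdc1 lies above Hnf4a and Xdh below it.

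Other transcription factors of the gut were described from a list of 22, of which 19 were matched. No factor passed the adjusted limma test, 14 had positive and 5 negative log2 fold changes, and the median was 0.13. Without adjustment, at 0.05 or less, 1 was higher by limma and 1 passed by SAM (16.2% and 15.5% of all genes). The highest were Foxa2, a forkhead factor of endoderm (0.47, adjusted p = 0.435 from limma), with 7.57, 8.32 and 7.90 in mutants and 7.73, 7.51 and 7.13 in controls, and Prdm1 (0.46, adjusted p = 0.644). The lowest were Nr5a2, a nuclear receptor of crypts (-0.58, adjusted p = 0.637), with 7.90, 7.28 and 6.63 in mutants and 7.51, 7.16 and 8.87 in controls, and Atoh1, which sets the secretory lineage (-0.29, adjusted p = 0.654). Elf3, an epithelial ETS factor, was the 1 gene of the 19 whose mutants lay above all controls, where 14.5% of all genes did so. Its signal was 11.21, 11.31 and 11.39 in mutants and 10.82, 10.98 and 11.16 in controls, and it did not pass the test (0.32, adjusted p = 0.337).

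Relatives of the 8 genes in their families were also measured, 10 of 10. No member of this list passed the adjusted limma test, and the median was -0.01. Without adjustment, at 0.05 or less, 1 was lower by limma and 1 passed by SAM (16.2% and 15.5% of all genes). Creb3l2 was the lowest (-0.83, adjusted p = 0.321), with 6.51, 5.40 and 6.41 in mutants and 6.92, 6.74 and 7.17 in controls, so that it was lowest in mutant replicate 2, where muscle and matrix markers were also lowest. Creb3l4 had -0.40 (adjusted p = 0.711). The highest were Gata3, a factor of lymphoid cells (0.25, adjusted p = 0.812), with 5.88 in mutant replicate 1 and 4.31 to 4.93 elsewhere, and Cdx4 (0.13, adjusted p = 0.706), at 2.98 to 3.41 in mutants and 2.89 to 3.19 in controls.

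Genes known as targets of HNF4α in liver or gut, 17 of 18 matched, had a median log2 fold change of -0.58 beside 0.05 for all genes. The members were chosen with earlier results of these arrays known, so the median is not independent evidence of a direction. Cldn15 (-0.90, adjusted p = 0.0580 from limma) is on the list, and its groups did not overlap. The study saw it lower on these arrays before testing it as a target of Hnf4α. It also found Cldn15 lower by quantitative PCR and in protein blots, and reported binding of Hnf4α to the Cldn15 promoter. Otc, of the urea cycle, had 4.001, 4.01 and 3.96 in mutants, against 8.20, 8.55 and 8.34 in controls. It fell (log2 fold change -4.37, adjusted p = 5.67e-05 from limma) and no gene of the list rose, while 0.396% of all genes fell and 0.484% rose. Averaged over its probe sets, Otc had a smaller log2 fold change of -2.50 (adjusted p = 0.000293 from limma). Whether the low mutant values of Otc are cut off at the bottom of the scale was not tested. Apob, the structural protein of chylomicrons, was next, with 6.01, 8.11 and 7.42 in mutants, against 10.40, 10.15 and 10.15 in controls. Its groups did not overlap and its mutants spread over more than 2 units, and the log2 fold change of -3.06 missed the threshold (adjusted p = 0.0602 from limma). Apob passed without mutant replicate 1, at -2.47 (adjusted p = 0.0234), and without mutant replicate 2, at -3.52 (adjusted p = 0.0396). Averaged over its probe sets, Apob had a smaller log2 fold change of -1.96 (adjusted p = 0.0276 from limma). The highest were G6pc (0.30, adjusted p = 0.312) and Apoa2 (0.21, adjusted p = 0.636), and G6pc lay at 3.77 to 3.997 in mutants and 3.47 to 3.61 in controls. Of the 17, 11 were lower and 6 higher, where 60.4% of all genes were higher. Among the higher genes, Apoc3, Mttp, F7, G6pc and Cyp7a1 had mean signals below 5 in both groups, as had Fabp1 among the lower ones. Whether these dim values are cut off at the bottom of the scale was not tested. The groups did not overlap for 6 lower genes and 1 higher gene, where 8.86% of all genes were lower and 14.5% higher without overlap.

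Targets of the CDX factors, 15 of 16 matched, had a median log2 fold change of -0.07, with 0 calls after adjustment by limma. Without adjustment, at 0.05 or less, 1 was higher and 3 were lower by limma, and 4 passed by SAM, where 16.2% of all genes passed by limma and 15.5% by SAM. Mep1a, a meprin subunit of the brush border, was the lowest (-1.50, adjusted p = 0.105), with 9.91, 11.11 and 10.84 in mutants, against 12.21, 12.17 and 11.98 in controls. Krt20, a keratin of the surface epithelium, had -0.49 (adjusted p = 0.313). At the other end stood Fut2, a fucosyltransferase (0.70, adjusted p = 0.627), with groups that overlapped, and Cdh17, the liver-intestine cadherin (0.49, adjusted p = 0.330), with 12.22, 12.53 and 12.68 in mutants, against 12.12, 12.16 and 11.68 in controls.

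Of 9 matched genes out of 10 listed as under GATA control in the mouse small intestine, Slc51a and Slc51b, the subunits of the basolateral bile acid exporter, fell (-4.49, adjusted p = 0.0242, and -2.69, adjusted p = 0.00535, from limma). Slc51a had 5.47, 7.501 and 5.68 in mutants, against 10.29, 10.97 and 10.86 in controls. Slc51b had 6.64, 6.12 and 5.96 in mutants, against 8.66, 9.06 and 9.07 in controls, and neither pair of groups overlapped. Slc51a was not called when any array but mutant replicate 2 was left out, with log2 fold changes of -4.69, -4.36 and -4.41 without control replicates 1, 2 and 3 and of -4.11 and -4.22 without mutant replicates 1 and 3 (adjusted p between 0.0514 and 0.119 from limma). Slc51b was not called with the replicate block (adjusted p = 0.0559). The highest were Ada (1.05, adjusted p = 0.375) and Fabp6, the ileal bile acid binding protein (0.63, adjusted p = 0.371), with 6.09, 6.19 and 6.27 in mutants and 5.60, 4.98 and 6.07 in controls. Over these 9 genes the median log2 fold change was -0.08, and without adjustment, at 0.05 or less, 2 were higher and 3 were lower by limma, where 16.2% of all genes passed. After adjustment 0.396% of all genes were called lower. The list does not mark which of its genes GATA factors raise or lower, so the median and counts give no direction of GATA action. Apoa4, Fabp1 and Cyp7a1 were also on the HNF4α target list. Cyp7a1 lay at 4.29 to 4.51 in mutants and 4.25 to 4.39 in controls, and whether it is expressed in this tissue was not tested.

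Targets of CREB3L3 known from the mouse liver, 10 of 11 matched, had a median of 0.03, with 0 calls after adjustment by limma. Without adjustment, at 0.05 or less, 1 was higher and 2 were lower by limma, and 3 passed by SAM, beside 16.2% and 15.5% of all genes by limma and by SAM. Apoa4, Apoc2 and G6pc, the genes that passed without adjustment, were also on the HNF4α target list, as was Pck1. Apoc2, the cofactor of lipoprotein lipase, was the lowest (-1.42, adjusted p = 0.300), with 5.47, 4.84 and 5.27 in mutants, against 5.74, 7.74 and 6.35 in controls. Cidec, a protein of the lipid droplet surface, had 6.94, 6.50 and 6.07 in mutants, against 8.13, 8.25 and 6.46 in controls, a log2 fold change of -1.11 (adjusted p = 0.402). As for Creb3l3, control replicate 3 lay among the mutants for Cidec and control replicates 1 and 2 above them. G6pc and Hamp, the iron hormone hepcidin (0.24, adjusted p = 0.476), were the highest. The mean signals of G6pc and Hamp lay below 5 in both groups, and whether they are cut off at the bottom of the scale was not tested.

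**Figure D4:**
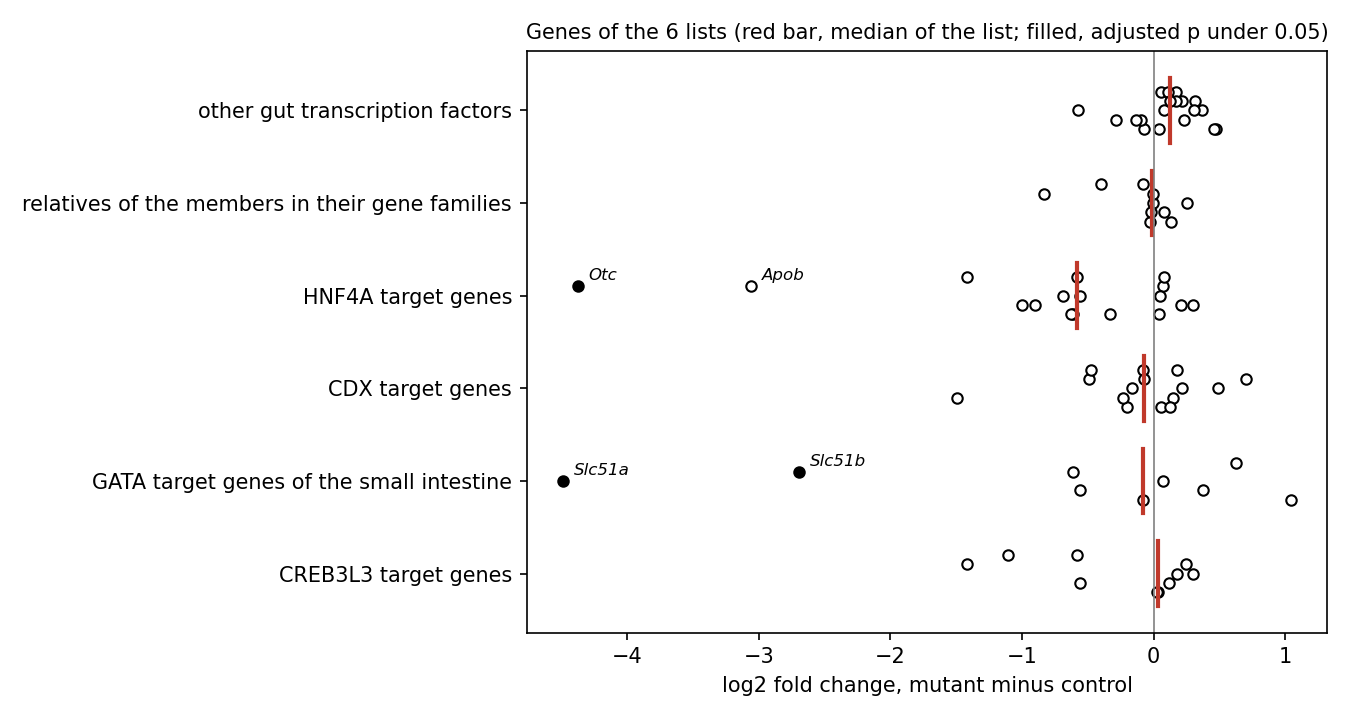
Log2 fold change, mutant minus control (horizontal axis), of each matched gene in the 6 lists (circles; filled at an adjusted p under 0.05 from limma), with the median of each list as a bar. Otc, Slc51a and Slc51b are the called genes, and the median of the HNF4α targets, -0.58, stands lowest.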

How the data were processed

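Total RNA of the proximal colon of 3 mutant and 3 control mice was hybridised to 6 single-colour arrays. Log2 values were deposited after the authors had normalized the arrays by RMA (version not given in the sources used here), and they were used without further scaling, so values of different probe sets are not on a common scale. Probe sets were named through the platform annotation, in which 34945 had 1 symbol, 932 several and 9160 none. After 64 control probe sets were left out, 45037 were fitted together with limma 3.58.1 (R 4.3.3), mutant minus control, without a block, with Benjamini-Hochberg adjustment over all of them. Groups of 3 arrays limit the precision. The limma p-values set each difference against the spread between these mice, with variances moderated over all probe sets, and they do not separate genotype from sex. The Hnf4a and Hnf4g difference was tested exactly with scipy 1.17.1. The fit was tested on simulated data with independent errors. That simulation held no shift of cell composition and no sex difference, so it says nothing of their part in the results.

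The members and lists were chosen with earlier results of these data known. Named genes were the 8 members, the 5 closest genes to each called member, and in each list the called genes and the 2 highest and 2 lowest, and Elf3 was named after its values were seen. Alternatives were other variance estimates, array weights, a replicate block, quantile and median scaling, scaling to epithelial markers, a filter on a mean log2 signal of 5, gene means, no X or Y genes, SAM, and each array left out. List members without a match were not analysed here. Promoter sequences came from RefSeq (GRCm38.p6).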

Additional observations from a re-analysis of the deposited data

How the results depend on the processing

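Hnf4a fell under all 16 alternatives, with log2 fold changes between -2.14 and -1.86, adjusted p between 0.000222 and 0.0139 in the 15 with adjustment, and -1.98 to -1.86 with 1 array left out. None of the other 7 genes was called under any alternative. With 1 array left out Hnf4g lay between -0.11 and 0.43, Cdx1 between 0.15 and 0.33, Cdx2 between 0.08 and 0.22, Gata4 between 0.04 and 0.12, Gata5 between 0.19 and 0.42, Gata6 between -0.11 and 0.10 and Creb3l3 between -1.12 and -0.49. Signs turned for Hnf4g (-0.11) and Gata6 (-0.067) with array weights, and for Gata6 with gene means (-0.0263) and in its other probe sets (-0.0009 and -0.10). Scaling to epithelial markers moved the median of all genes by -0.21 and turned Cdx2 (-0.079), Gata4 (-0.12) and Gata6 (-0.19). Gata4 was too dim for the filter.

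The 239 called probe sets, 57.3% of them higher, became 599 with array weights, 433 with epithelial scaling (24.9% higher), 5543 with SAM without adjustment, and 39 (without control replicate 1) to 336 (without control replicate 2) with an array left out. Leaving out mutant replicates 1, 2 and 3 in turn gave 169, 147 and 52, and leaving out control replicate 3 gave 92. Without control replicate 2, 38.7% were higher. The called HNF4A targets, 1 without any change of setting, were 2 with trend and robust variances and 3 with array weights, epithelial scaling or gene means. Cldn15 was among them in each of these settings with more calls. They were 0 without X and Y genes since Otc is X-linked, and 1 to 2 with an array left out. With SAM, without adjustment, 7 of 17 HNF4A targets passed, where 15.5% of all genes did. Called CDX targets were 2, Mep1a and Vdr, with epithelial scaling, against 0 without it. With SAM 4 of 15 CDX targets, 4 of 9 GATA targets and 3 of 10 CREB3L3 targets passed. So did 1 of 19 gut factors and 1 of 10 relatives, beside the same 15.5% of all genes. The 2 called GATA targets were 1 with the replicate block, which lost Slc51b, and 1 to 2 with an array left out. The cause of these differences was not tested.

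With the replicate block 62 probe sets were called, and Hnf4a remained called at -1.94. Same-numbered arrays correlated at -0.02, 0.25 and -0.15 in their deviations from the group means, so the numbers were not taken to pair mice. The number of arrays limits the precision.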
